A study of Mus musculus with 95 samples.

Results

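The fatty acid oxidation genes described here are 9 genes of mitochondrial long-chain and medium-chain fatty acid breakdown, measured in the nucleus accumbens of mice. They were chosen by name and are Cpt1a, Slc25a20, Cpt2, Acadvl, Acadl, Acadm, Etfdh, Hadha and Hadhb. Each matched 1 of the 55471 features of the deposited count table. All 9 passed the filter on low counts in every test.

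The study compared dependent, non-dependent and alcohol-naive mice. Dependent mice received 5 rounds of CIE, chronic intermittent ethanol exposure, within a protocol that also holds 2BC, a free-choice drinking procedure. Non-dependent mice had 2BC without CIE, and naive mice had no ethanol. All groups, controls included, carried Tg(Aldh1l1-EGFP/Rpl10a)JD130Htz/J on a B6;FVB background, in which regulatory sequence of the astrocyte gene Aldh1l1 drives a tagged ribosomal protein, so the purified RNA represents the cells in which that transgene is active. The labels give no age. Translating ribosome affinity purification gave 1 IP library per mouse, the RNA on astrocyte ribosomes, and an aliquot taken beforehand gave 1 Input library, the RNA of the whole punch. IP libraries came from 18 dependent, 13 non-dependent and 15 naive mice, and Input libraries from 18, 15 and 16. The mice fall into 6 labelled batches, and what a batch stands for is not stated. A single dependent female makes up batch C, and another batch G. Naive mice are missing from batch I and non-dependent mice from batch L. The treatments were therefore compared within batches I to L with batch in the fit, over 16 dependent, 13 non-dependent and 15 naive IP libraries.

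In mitochondrial fatty acid oxidation, long-chain acyl-CoA is passed to carnitine by CPT1 at the outer mitochondrial membrane, carried inward by the carnitine-acylcarnitine translocase, and returned to coenzyme A by CPT2 at the inner membrane. Each turn of the spiral then runs through an acyl-CoA dehydrogenase, a hydratase, a second dehydrogenase and a thiolase. In brain the enzymes are known chiefly from astrocytes, while neurons oxidize mainly glucose and lactate.

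Cpt1a encodes the carnitine acyltransferase that controls entry, Slc25a20 the translocase, and Cpt2 the inner-membrane transferase. Acadvl, Acadl and Acadm encode the dehydrogenases of very long, long and medium chains. Etfdh encodes the dehydrogenase that hands their electrons to ubiquinone. Hadha and Hadhb encode the 2 subunits of the trifunctional protein, which carries out the remaining steps for long chains.

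Positions are of GRCm38 with GENCODE M21 gene models. Cpt1a (ENSMUSG00000024900) lies on chromosome 19 from 3322334 to 3385733, Slc25a20 (ENSMUSG00000032602) on chromosome 9 from 108662088 to 108684641 and Cpt2 (ENSMUSG00000028607) on chromosome 4 from 107903981 to 107923610. Acadvl (ENSMUSG00000018574) lies on chromosome 11 from 70010183 to 70015411, Acadl (ENSMUSG00000026003) on chromosome 1 from 66830839 to 66863277 and Acadm (ENSMUSG00000062908) on chromosome 3 from 153922357 to 153944632. Etfdh (ENSMUSG00000027809) lies on chromosome 3 from 79603788 to 79629500. Hadha is ENSMUSG00000025745 and Hadhb is ENSMUSG00000059447.

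The trifunctional protein genes lie head to head on mouse chromosome 5 (GRCm38, GENCODE M21). Hadha spans 30118304 to 30155162 on the minus strand and Hadhb spans 30155248 to 30184593 on the plus strand. That leaves 85 bases between the starts of these gene models. The RefSeq starts used for the windows below differ from these starts. Both promoter windows, 250 bases before to 50 after the RefSeq start, are shown. Of this pair, Hadha was called between treatments below and Hadhb was not. Capitals mark the GC box GGGCGG or its reverse complement, and sequences are from RefSeq on GRCm38.p6.
Hadha, chr5:30154931-30155230, minus strand: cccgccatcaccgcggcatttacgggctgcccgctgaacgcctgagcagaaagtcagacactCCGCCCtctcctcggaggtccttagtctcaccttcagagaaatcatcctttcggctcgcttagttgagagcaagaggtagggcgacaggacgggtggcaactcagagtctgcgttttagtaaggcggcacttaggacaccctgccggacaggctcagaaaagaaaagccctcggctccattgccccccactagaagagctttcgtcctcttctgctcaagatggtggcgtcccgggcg
Hadhb, chr5:30155003-30155302, plus strand: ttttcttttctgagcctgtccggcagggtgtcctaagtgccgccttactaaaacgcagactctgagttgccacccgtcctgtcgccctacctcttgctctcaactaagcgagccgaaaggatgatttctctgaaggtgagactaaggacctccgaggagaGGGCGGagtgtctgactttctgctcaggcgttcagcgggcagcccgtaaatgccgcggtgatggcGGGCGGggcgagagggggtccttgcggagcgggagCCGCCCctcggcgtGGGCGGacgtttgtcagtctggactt

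The pair of windows share 228 bases, read in opposite directions, and 1 GC box at 30155163 to 30155168. Read along each gene, this box begins 188 bases before the RefSeq start of Hadha and 90 before that of Hadhb. The Hadha window holds no other match to this motif, while that of Hadhb holds 4 in all. Over the 9 genes, 7 promoters held a GC box on either strand, against 35.7% of the 32851 promoters in the table. AGGTCA, the core site of PPAR and ERR nuclear receptors, was found in 3 of 9 (Cpt1a, Acadvl and Acadm), against 16.3% of promoters. CCAAT was found in 2 of 9 (Cpt1a and Etfdh), against 37.4%. The DR1 element, a direct repeat of that site with 1 base between, the ERR element TNAAGGTCA, which contains the core site, and the E-box CACGTG were found in 0 of 9 windows, against 0.0396%, 1.28% and 7.15% of promoters. All 6 motifs were searched on both strands.

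Total counts ran from 14314236 to 27146790 in IP libraries and from 12803108 to 23948193 in Input libraries. All 12 astrocyte markers were higher in IP than in Input, with a median log2 fold change of 3.10, and all 10 neuron markers and all 10 microglia markers were lower (medians -1.30 and -1.15). Not every other list was depleted. Summed ependymal and choroid plexus markers had naive medians of 46.5 CPM in IP and 46.4 CPM in Input. OPC (oligodendrocyte precursor) markers had 98.1 and 113.9 CPM. Medium spiny neuron markers had 3388 and 9701 CPM, oligodendrocyte markers 1781 and 5211 CPM, and endothelial and mural markers 112.1 and 232.0 CPM.

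The first comparison asked which of these genes were carried by astrocyte ribosomes. Every one of the 9 was higher in IP than in Input, by 1.78 to 3.004 on the log2 scale. The median log2 fold change of the 9 was 2.29, against -0.16 over all genes tested. The background is high: of 21743 genes tested with the mouse as a block, 33.6% were called higher and 78.5% were called in either direction, a call being an adjusted p at or under 0.05 by the quasi-likelihood test of edgeR with Benjamini-Hochberg adjustment. Levels below are in CPM.

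**Figure D1:**
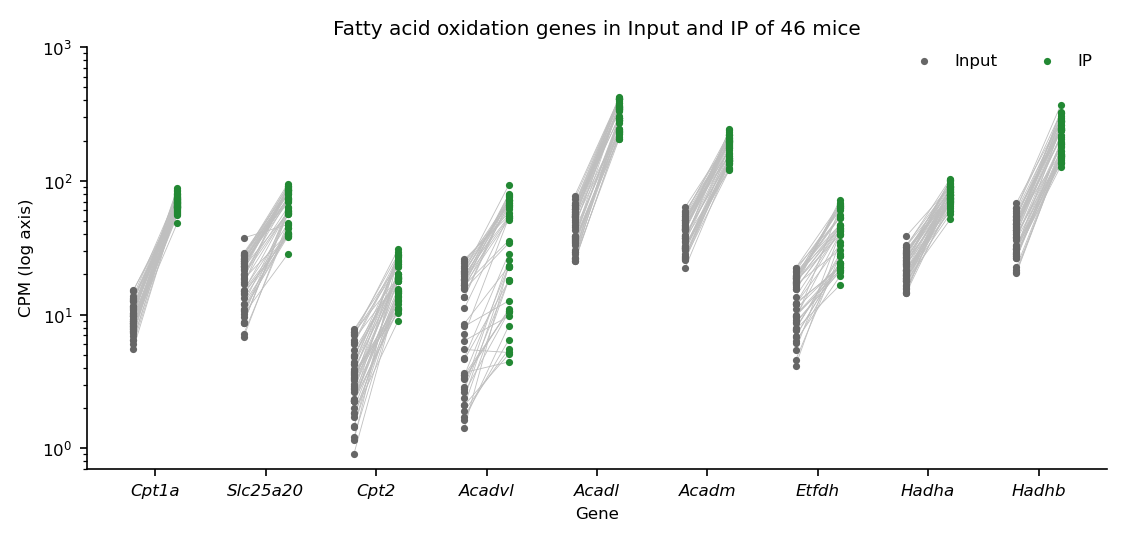
Level of each gene (CPM, log axis) in the Input (grey) and IP (green) library of the 46 mice with both, with a line joining the libraries of a mouse. All lines rise but 1 of Acadvl, whose levels spread most, from 4.42 to 92.5 CPM in IP.

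Among the carnitine shuttle genes, Cpt1a had 48.5, 68.3 and 88.0 CPM in IP (lowest, median and highest of 46 libraries) against 5.55, 9.21 and 15.2 CPM in the 49 Input libraries. The ranges of the fractions did not overlap, and its log2 fold change was 3.004 ± 0.05 (SE), the largest of the 9. Slc25a20 had 28.3, 62.7 and 94.9 CPM in IP and 6.78, 20.2 and 37.4 CPM in Input, a log2 fold change of 1.95 ± 0.06. Cpt2 was the least abundant member by CPM, with 8.997, 18.6 and 30.9 CPM in IP and 0.914, 3.42 and 7.75 CPM in Input. The Cpt2 ranges also stood apart, with a log2 fold change of 2.55 ± 0.09, while those of Slc25a20 overlapped. Each shuttle gene exceeded its Input level in 46 of 46 mice.

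Of the acyl-CoA dehydrogenases, Acadl was the most abundant, with 204.7, 317.3 and 423.5 CPM in IP and 25.1, 50.6 and 77.4 CPM in Input. Its log2 fold change was 2.92 ± 0.04. Acadm had 120.1, 177.1 and 243.4 CPM in IP and 22.4, 42.9 and 63.6 CPM in Input, a log2 fold change of 2.29 ± 0.04. Neither gene's IP range reached its Input range. Acadvl differed from both in its spread, with 4.42, 43.4 and 92.5 CPM in IP and 1.43, 13.6 and 25.9 CPM in Input, and a log2 fold change of 2.01 ± 0.08. IP exceeded Input in 45 of 46 mice, and the exception was a mouse of batch J with 5.21 CPM in IP and 5.49 CPM in Input. Etfdh, the electron transfer gene, had 16.6, 41.3 and 71.4 CPM in IP and 4.14, 13.6 and 23.6 CPM in Input, and the smallest log2 fold change of the 9, 1.78 ± 0.06.

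Hadha had 51.5, 78.5 and 103.2 CPM in IP and 14.4, 23.3 and 38.5 CPM in Input, a log2 fold change of 1.962 ± 0.05. Hadhb had 127.9, 209.1 and 367.4 CPM in IP and 20.5, 41.3 and 68.4 CPM in Input, a log2 fold change of 2.60 ± 0.04. The fractions did not overlap for either subunit. Divided within each library, the CPM ratio of Hadha to Hadhb had a median of 0.448 in the IP of naive mice and 0.510 in their Input. These ratios are per count and not per length of transcript.

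Per kilobase of all annotated exonic bases (RPKM), the median IP levels in order were 158.2 for Acadl, 45.3 for Acadm, 31.7 for Hadhb, 16.2 for Acadvl, 12.95 for Slc25a20, 8.99 for Hadha, 8.93 for Cpt1a, 7.79 for Cpt2 and 5.50 for Etfdh. By this length, Acadl stood above all others beyond the spread of the libraries. Hadha and Cpt1a did not differ beyond their spread (9.10 ± 1.42 and 9.01 ± 1.08 RPKM, SD, n = 46), nor did Acadvl and Slc25a20. The order of the medians depends on the length used. With the principal transcript of each gene, a choice made after the data were seen, Hadhb had a median of 102.1 RPKM and Acadm of 86.5, and Etfdh 17.4 and Cpt1a 15.8. Neither of these pairs differed beyond its spread: Hadhb had 105.8 ± 30.8 and Acadm 86.1 ± 16.7 RPKM, and Etfdh 17.2 ± 7.01 and Cpt1a 15.96 ± 1.92 RPKM (SD, n = 46). Acadl again had the highest median, 165.6 RPKM, but its range of 106.8 to 221.0 overlapped that of Hadhb, 62.4 to 179.4.

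Related genes were counted by lists, to be read against the 33.6% of all genes called higher and the 78.5% called in either direction. Of 16 other genes of mitochondrial beta-oxidation, 15 were tested, 13 were higher in IP and 1 was lower, with a median log2 fold change of 1.97. Higher were Acaa2, a thiolase (2.92), Etfa, an electron transfer flavoprotein subunit (2.34), and the enoyl-CoA isomerases Eci1 (2.65) and Eci2 (2.37). The lower gene was Cpt1c (-0.56), a carnitine acyltransferase family member known from neurons, named here after its value was seen. All 6 genes of carnitine supply and acyltransfer were higher, among them Crot, the peroxisomal carnitine octanoyltransferase (3.03). Of 15 peroxisomal fatty acid oxidation genes, 14 were higher and 1 was lower. Of 10 genes of fatty acid uptake and activation, 5 were higher, led by Acsl6 (2.71) and Acsbg1 (3.34), and 5 were lower. Among 10 PPAR receptors and coregulators, 5 were higher, including Ppara (2.51), the receptor known to drive these genes in liver, and Ppargc1a (1.15), and 3 were lower. Of 10 PPAR targets outside beta-oxidation, 9 were tested and 7 were higher, among them Pdk4 (3.03) and Acot1 (2.72). The 16 nuclear-encoded respiratory chain genes had a smaller median, 0.37, with 10 higher and 3 lower, and the 20 genes of the TCA cycle and pyruvate dehydrogenase had 0.50, with 18 higher and 0 lower.

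Most of these genes differed between batches within a fraction. In the joint test of the batch terms, with treatment and sex in the fit, 8 of 9 were called in IP, where 46.6% of 19979 genes were, and 8 of 9 in Input, where 52.1% of 19691 were. The exception in both was Cpt1a (edgeR adjusted p = 0.0567 in IP and 0.654 in Input). Its median IP level was 70.0, 70.8, 64.4 and 67.5 CPM in batches I, J, K and L.

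The 3 acyl-CoA dehydrogenases, the translocase, Cpt2, Etfdh and Hadhb had lower fitted IP levels in batches J and K than in batches I and L. Acadvl spread most: its IP level ran from 34.0 to 92.5 CPM in batch I, from 4.42 to 23.1 CPM in batch J, from 5.49 to 52.7 CPM in batch K and from 35.7 to 65.5 CPM in batch L. Every IP library of batch J was below every one of batch I and batch L. The fitted difference of J from I was -2.58 in IP and -2.07 in Input on the log2 scale (edgeR adjusted p of the joint batch test 3.62e-12 and 1.38e-16). Etfdh followed, with -1.30 in IP and -0.83 in Input. Its IP range was 43.0 to 71.4 CPM in batch I and 16.6 to 27.6 CPM in batch J.

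For Hadhb the IP range was 211.7 to 367.4 CPM in batch I and 127.9 to 178.8 CPM in batch J, and the fitted difference was -0.76. Slc25a20 differed by -0.76, Cpt2 by -0.65, Acadl by -0.51 and Acadm by -0.31 in IP. Hadha had the smallest difference of J from I among the 8 called genes, -0.07 in IP, and its largest IP difference from batch I was -0.23, in batch K. Its joint test gave an edgeR adjusted p of 0.0272 in IP. Within a mouse, the median IP over Input of Acadm was 4.51, 4.48, 4.92 and 3.87 in batches I, J, K and L. For Hadha it was 2.78, 4.09, 3.77 and 3.56, and for Cpt1a 7.12, 8.86, 6.90 and 6.78, so both genes had their highest median fold in batch J. For Acadvl it was 3.79, 3.18, 6.55 and 2.81, with values from 0.949 to 16.2 in batch J.

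**Figure D2:**
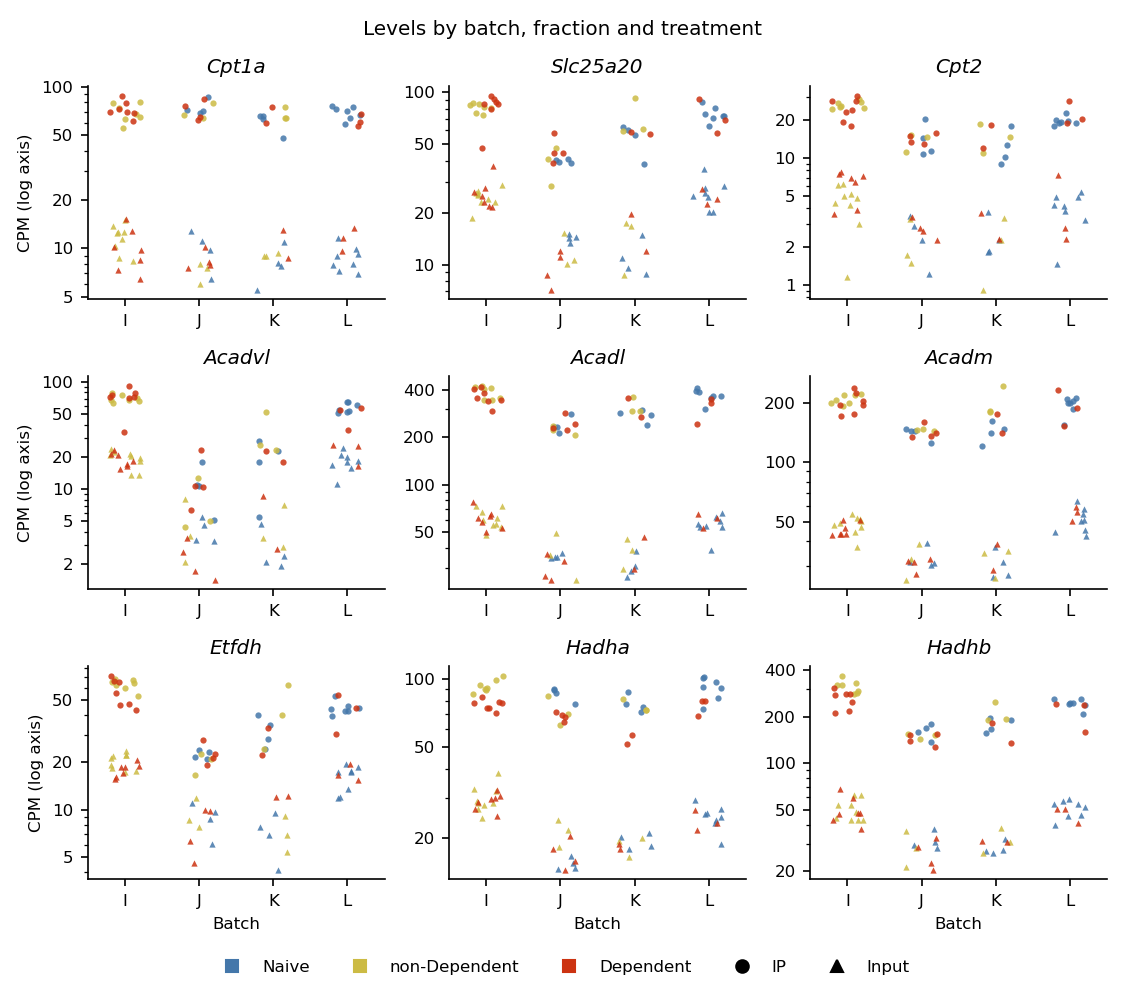
Level of each gene (CPM, log axes that differ between panels) by batch I to L, with circles for IP, triangles for Input and colours for treatment. Acadvl and Etfdh sit lowest in batches J and K in both fractions, while the batch medians of Cpt1a in IP lie between 64.4 and 70.8 CPM.

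Across the 44 IP libraries of batches I to L, the Pearson correlation of log2 CPM between members had a median of 0.74 over the 36 pairs, and of 0.31 (range -0.20 to 0.74) after batch means were subtracted. These are descriptions over libraries that share depth and composition. After subtraction the closest pair was Slc25a20 and Acadvl (0.74), then Acadm and Hadhb (0.74). Hadha and Hadhb had 0.50, and Cpt1a had its lowest values with Acadvl (-0.20) and Etfdh (-0.13).

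Over 15123 genes with at least 1 CPM in IP, the genes whose batch-centred IP levels were most like those of a member were named, 3 to a member. For Hadhb they were Dld, the shared dehydrogenase subunit of pyruvate and oxoglutarate dehydrogenase (r = 0.83), Hsdl2 (0.81) and Abhd3 (0.80). For Hadha they were Hnrnpc (0.75), Pnrc2 (0.72) and Crot (0.71). For Slc25a20 they were 4833439L19Rik (0.82), Acads, the short-chain acyl-CoA dehydrogenase (0.82), and Inpp5a (0.81). Acadvl was closest to Pgam1 (0.93), Bckdha (0.90) and Gm13509 (0.90), Acadl to Lamp1 (0.81), Bpgm (0.79) and Yipf4 (0.76), and Acadm to Ghitm (0.84), Sdcbp (0.83) and Suclg2 (0.83). Etfdh was closest to Aktip (0.84), Rac1 (0.80) and Rab7 (0.80). Cpt2 was closest to Cdc42ep4 (0.63), Dcaf11 (0.62) and Esrra, an orphan nuclear receptor known to act on fatty acid oxidation genes (0.61). Cpt1a was closest to C130071C03Rik (0.59), St6gal1 (0.59) and Dag1 (0.58).

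The main comparison asked which genes on astrocyte ribosomes differed with dependence. In IP, Hadha was lower in dependent than in naive mice and, by less, than in non-dependent mice. No other member was called in any of the 3 treatment comparisons of IP. Hadha had 71.1, 87.3 and 101.6 CPM in the 15 naive mice (lowest, median and highest), 62.3, 85.5 and 103.2 CPM in the 13 non-dependent mice and 51.5, 72.9 and 83.1 CPM in the 16 dependent mice of batches I to L. All 16 dependent mice were below the naive median, 7 were below the lowest naive mouse, and the ranges overlapped between 71.1 and 83.1 CPM.

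Against naive mice, the fitted log2 fold change of Hadha was -0.38 ± 0.06 (edgeR adjusted p = 2.13e-05). It was 1 of 9 members called lower and 0 were called higher, where 1.86% of 19979 genes were called lower and 4.67% in either direction. The difference kept its direction within each batch that holds both groups. In batch J the 4 dependent mice averaged 68.3 CPM and the 4 naive mice 85.9 CPM, without overlap, a mean difference of -0.33 in log2(CPM + 0.5). In batch K, 2 dependent mice averaged 54.0 CPM and 4 naive mice 77.8 CPM (-0.52), also without overlap. In batch L, 3 dependent mice averaged 76.1 CPM and 7 naive mice 91.0 CPM (-0.25), and 1 of the 3 was below the lowest naive mouse. The call was lost in males alone at -0.40 (adjusted p = 0.0786). The median change of the 9 members was -0.05, against 0.00 over all genes tested.

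Astrocyte markers moved in this comparison too, with 3 of 12 called higher (Gjb6, Gfap and Fgfr3), 0 lower, and a median of -0.04. The markers summed to between 23639 and 32256 CPM in dependent and between 26196 and 30631 CPM in naive mice, and none was at 0. With the difference between neuron and astrocyte marker levels as a covariate, Hadha had a log2 fold change of -0.39 (edgeR adjusted p = 2.94e-05). That covariate includes Gjb6, Gfap and Fgfr3, so it cannot tell cell composition from a change in these markers within astrocytes. Other marker lists had 0 or 1 gene called. Lower in the fit were Adora2a, a medium spiny neuron marker, Cnp, an oligodendrocyte marker, and Pdgfrb, an endothelial and mural marker. The IP medians of Cnp, without batch adjustment, went the other way, at 237.6 CPM in dependent and 197.0 CPM in naive mice. Those of Adora2a were 31.2 and 38.9 CPM, and those of Pdgfrb 15.8 and 21.2 CPM. No gene of the general neuron, OPC, microglia or ependymal lists was called. The part of cell composition in the result was not tested beyond that covariate, which holds general neuron and astrocyte markers only.

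Against non-dependent mice, Hadha was lower by a smaller amount, a log2 fold change of -0.21 ± 0.06 (edgeR adjusted p = 0.0346). It was again 1 of 9 called lower and 0 were called higher, where 0.445% of genes were called lower and 1.54% in either direction. In batch I all 7 dependent mice, at 70.7 to 83.1 CPM, were below all 7 non-dependent mice, at 85.5 to 103.2 CPM (mean difference -0.28). In batch K, 2 mice at 51.5 and 56.6 CPM were below 3 at 72.9, 73.1 and 81.9 CPM (-0.49). In batch J the 4 dependent and 3 non-dependent mice overlapped and averaged 68.3 and 72.0 CPM (-0.07).

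The call against non-dependent mice was lost under many alternatives. It was lost with no count filter (edgeR adjusted p = 0.271), with no batch term (0.258), with all mice and no batch term (0.149), with the marker covariate (0.0714), in batches J and K only (0.715), without batch I (0.638), without batch K (0.216), and in either sex alone (0.150 in females, 0.740 in males). Leaving out 1 mouse lost it for 10 of 44 mice: I03, I06, I08, I09, I11, J04, J09, K15, K18 and K21, with log2 fold changes of -0.21 to -0.18 and edgeR adjusted p between 0.0514 and 0.0980. C1qa, C1qb and C1qc, microglia markers, were called higher in IP in the same comparison (3 of 10 microglia markers, 0 lower). The microglia markers summed to between 176.0 and 743.9 CPM in dependent and between 187.6 and 271.8 CPM in non-dependent mice, and their part in the Hadha value was not tested.

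**Figure D3:**
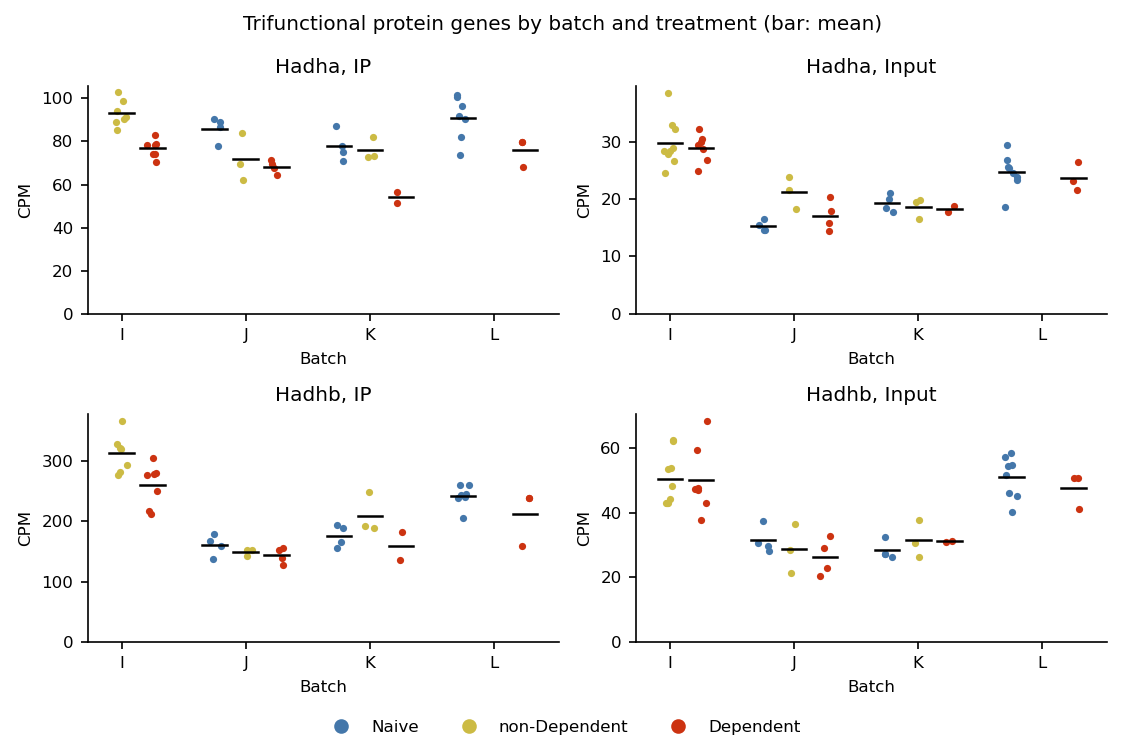
Levels of Hadha and Hadhb (CPM, linear axes from 0) in IP and Input by batch and treatment, where points are mice and bars are means. In IP the dependent mice have the lowest mean Hadha level in every batch, from 54.0 CPM in batch K to 76.8 CPM in batch I, while in Input the naive mice of batch J have the lowest mean of that batch, 15.3 CPM.

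Hadhb, the partner subunit, also had negative estimates in both comparisons of dependent mice, and these missed the threshold. Its IP level was 136.9, 194.9 and 260.4 CPM in naive mice, 143.2, 278.2 and 367.4 CPM in non-dependent mice and 127.9, 215.0 and 305.0 CPM in dependent mice of batches I to L. The groups overlapped widely, and batch I, with the highest levels, holds no naive mouse. With batch in the fit, the log2 fold change was -0.20 ± 0.07 against naive (edgeR adjusted p = 0.0769) and -0.22 ± 0.07 against non-dependent mice (adjusted p = 0.0825). Within batches, the dependent mean was lower than the naive mean by 0.16 in J, 0.16 in K and 0.21 in L in log2(CPM + 0.5), and lower than the non-dependent mean by 0.27 in I, 0.06 in J and 0.40 in K. The call against naive mice was made with DESeq2 (adjusted p = 0.0444), and without mouse J06 or mouse K15 (edgeR adjusted p 0.0389 and 0.0365). That against non-dependent mice was made with library size scaling alone (0.0486) and without J06 (0.0424).

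The remaining 7 members had IP estimates between -0.09 and 0.10 against naive mice and between -0.16 and 0.05 against non-dependent mice, with edgeR adjusted p of at least 0.519. Their standard errors ran from 0.06 for Acadm to 0.21 for Acadvl. For Cpt1a the 95% interval against naive mice was -0.20 to 0.10, and for Acadl it was -0.22 to 0.05. For Acadvl it was -0.40 to 0.44, an interval that holds the value of Hadha.

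Non-dependent and naive mice were compared to ask what drinking without CIE went with. No member was called in IP, where 0.440% of genes were. Hadha had -0.17 ± 0.07 (edgeR adjusted p = 0.266) and Hadhb 0.01 ± 0.08 (0.982), a sign that turned in several alternatives. Only batches J and K hold both groups, and the other batches enter through their dependent mice.

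**Figure D4:**
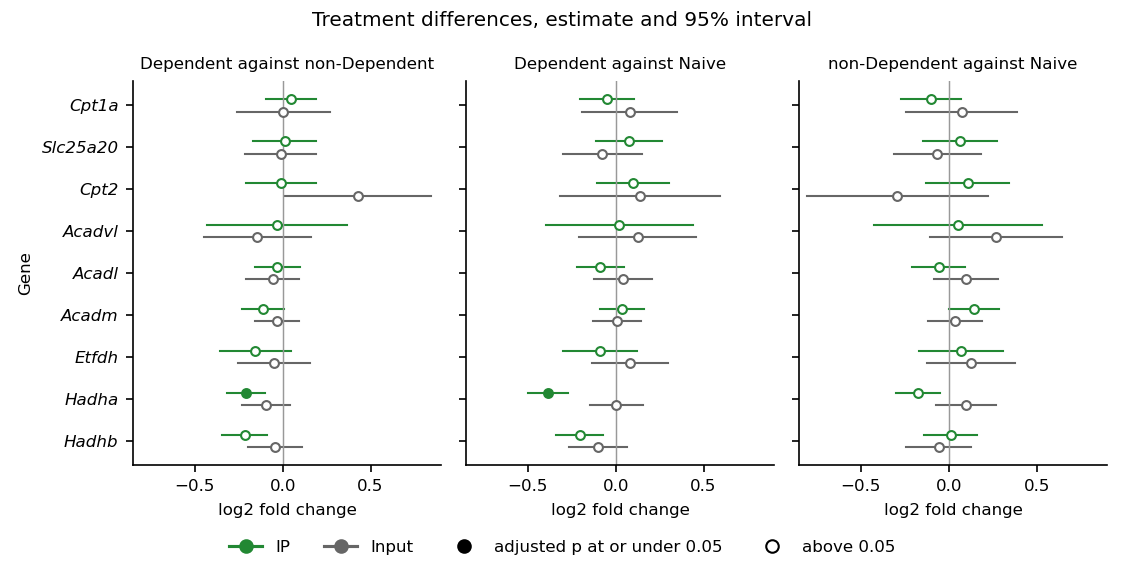
Log2 fold change and 95% interval of each gene in the 3 treatment comparisons, in IP (green) and Input (grey), with filled points at an adjusted p at or under 0.05. Hadha in IP carries both filled points, at -0.21 against non-dependent and -0.38 against naive mice.

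In Input, no member was called in any treatment comparison. The background was 0.355% of 19691 genes for dependent against non-dependent mice, 2.38% for dependent against naive and 0.122% for non-dependent against naive. At an unadjusted p under 0.05 the members numbered 1, 0 and 0. That 1 was Cpt2, at 0.43 ± 0.21 in dependent against non-dependent mice (edgeR adjusted p = 0.721), with 2.26, 3.64 and 7.75 CPM in dependent and 0.914, 3.38 and 6.27 CPM in non-dependent mice. Hadha had 14.6, 20.5 and 29.4 CPM in naive, 16.4, 26.6 and 38.5 CPM in non-dependent and 14.4, 24.02 and 32.3 CPM in dependent mice. Its log2 fold change in Input was 0.00 ± 0.08 against naive and -0.09 ± 0.07 against non-dependent mice. Input is whole tissue, so fewer cells of a type and less RNA per cell cannot be told apart in it.

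Whether the Hadha difference was larger in IP than in Input was tested in the 44 mice with both libraries in batches I to L. For dependent against naive mice it was, with a difference between the fractions of -0.40 ± 0.09 (edgeR adjusted p = 0.0294). It was 1 of 9 members called, where 0.356% of 21659 genes were called and 0.189% in this direction. Without the mouse as a block the value was -0.40 with an adjusted p of 0.0650. The test was not repeated with a batch or a mouse left out. Within a mouse, IP over Input of Hadha was 3.001, 4.22 and 6.17 in naive, 2.35, 3.54 and 4.43 in non-dependent and 2.52, 2.96 and 4.82 in dependent mice (lowest, median and highest). In batch J, dependent mice had 3.32 to 4.82 and naive mice 5.01 to 6.17. In batch K they had 2.90 to 3.02 and 3.54 to 4.90, and in batch L 3.01 to 3.46 and 3.001 to 4.86. The groups did not overlap in J and K and overlapped in L. In Input of batch J the naive mice had the lowest Hadha mean, 15.3 CPM against 17.1 CPM in dependent mice, and without batch J the Input estimate against naive mice was -0.14 (adjusted p = 0.518). For dependent against non-dependent mice the difference between the fractions was -0.12 ± 0.09 (edgeR adjusted p = 0.794), where 0.111% of genes were called. For non-dependent against naive mice it was -0.29 ± 0.11 (edgeR adjusted p = 0.720), where 0 genes were called by edgeR and 0 by limma voom. There 1196 genes (5.52%) had an unadjusted edgeR p under 0.05.

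Sex was examined because the study used both. No member differed between females and males in IP or Input, where 0.0501% and 0.0508% of genes were called. No gene of the table differed between the sexes in a treatment difference by edgeR or limma voom. In IP, 627 to 858 of 19979 genes (3.14% to 4.29%) had an unadjusted edgeR p under 0.05. In IP the median Hadha level was 71.8 CPM in 10 dependent and 88.1 CPM in 8 naive females, and 71.1 CPM in 8 dependent and 86.6 CPM in 7 naive males. These 18 dependent mice include those of batches C and G, at 59.9 and 59.6 CPM. The female minus male difference of the Hadha change against naive mice was 0.05 ± 0.10.

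Around these 9 genes, the other pathway lists were counted between dependent and naive mice in IP, to be read against a background of 4.67%. Whether the lists differ from that share was not tested. Of the 15 other mitochondrial beta-oxidation genes tested, 1 was called. This was Eci1, the isomerase of the odd-position double bond, lower at -0.29 ± 0.06 (edgeR adjusted p = 0.00284). Eci1 had 221.5, 273.0 and 327.2 CPM in naive, 178.8, 205.0 and 294.3 CPM in non-dependent and 162.1, 222.0 and 267.3 CPM in dependent mice. It was lower in non-dependent than in naive mice too, at -0.36 ± 0.07 (adjusted p = 0.00639).

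In the list of carnitine supply and acyltransfer, 2 of 6 were called in opposite directions. Crot was lower at -0.28 ± 0.07 (edgeR adjusted p = 0.0110), with 116.9, 143.8 and 177.5 CPM in naive and 108.1, 125.2 and 166.1 CPM in dependent mice. Slc22a4, a carnitine and ergothioneine transporter, was higher at 0.51 ± 0.15 (adjusted p = 0.0406), with medians of 12.2 CPM in naive and 20.7 CPM in dependent mice. Pex11a, a peroxisome division gene, was the 1 called of 15 peroxisomal genes, higher at 0.32 ± 0.09 (adjusted p = 0.0268). Dld was the 1 called of 20 TCA cycle and pyruvate dehydrogenase genes, lower at -0.26 ± 0.08 with batch in the fit (adjusted p = 0.0413). Its medians without batch adjustment were 90.5 CPM in naive and 94.4 CPM in dependent mice. Vnn1, the pantetheinase, was the 1 called of 9 PPAR targets and was near the detection limit, with a median of 0 CPM and at most 3.36 CPM in naive mice, and a median of 1.76 and at most 6.91 CPM in dependent mice (adjusted p = 0.0425).

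The lists of fatty acid uptake and activation (10 genes), malonyl-CoA and AMPK control (6), PPAR receptors and coregulators (10), ketone body metabolism (7), lipid droplets and lipolysis (9) and the respiratory chain (16) had 0 called. Against non-dependent mice no gene of any pathway list but Hadha was called in IP, where the background was 1.54%. In Input, 2.38% of 19691 genes were called between dependent and naive mice, and whether the pathway lists differ from that share was not tested. The pathway genes called had positive estimates. They were Ppard, the delta PPAR receptor (1.10), Ucp2, a mitochondrial carrier (0.68), Mgll, the monoacylglycerol lipase (0.35), and Suclg2, a succinyl-CoA ligase subunit (0.36), with edgeR adjusted p of 0.0270, 0.000747, 0.0248 and 0.0390. The Ppard medians lay close together, at 2.29 CPM in dependent and 2.13 CPM in naive mice. The highest dependent library had 28.96 CPM against at most 3.62 CPM in naive mice. Whether the Ppard call holds without that library was not examined. Ucp2 had medians of 31.3 CPM in dependent and 17.9 CPM in naive mice, Mgll 408.0 and 302.1 CPM, and Suclg2 21.1 and 16.3 CPM.

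**Figure D5:**
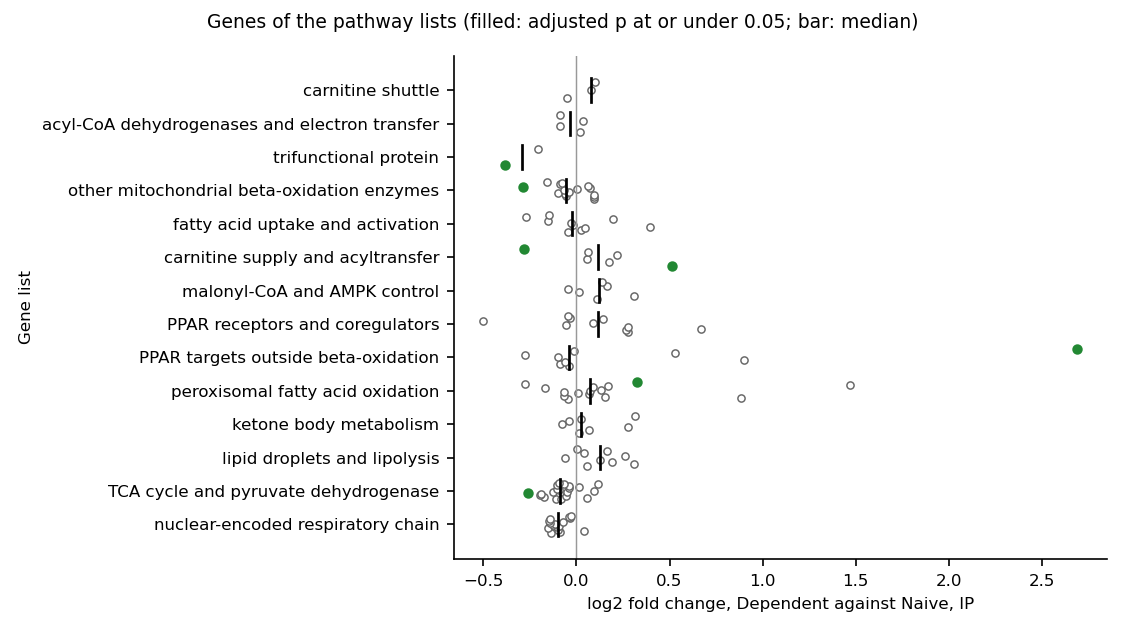
Log2 fold change, dependent against naive mice in IP, of each tested gene of the pathway lists, where filled points have an adjusted p at or under 0.05 and bars are list medians. Hadha, Eci1, Crot and Dld are filled on the lower side, and Slc22a4, Pex11a and Vnn1 on the higher side.

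Some members share exonic bases with a gene on the opposite strand, and use of strand in counting is not known, so reads of such partners cannot be told apart there. Acadvl shares 1151 bases with Dvl2 (6.07 CPM on average in IP), Etfdh 278 bases with 4930579G24Rik (3.57 CPM) and Hadha 75 bases with Garem2 (41.2 CPM). None of these neighbours was called in a treatment comparison. Garem2 had 0.21 ± 0.08 in dependent against naive mice in IP (edgeR adjusted p = 0.177) and -0.08 ± 0.08 against non-dependent mice (0.821). The part of Garem2 reads in the Hadha values was not tested.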

How the data were processed

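RNA from nucleus accumbens punches was measured in 95 libraries of 49 mice, 46 with IP and Input. The counts per gene used here are those the authors deposited, 1 column per library, not normalized. The submitters' processing notes name STAR 2.7.10b, Trimmomatic 0.39, FastQC 0.11.9 and the build GRCm38. How reads were assigned to genes (program, gene models, strand) is not given in the sources used here. Features without a symbol in GENCODE M21 (327) held 0.0192% of counts.

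The 9 genes and the lists of related genes were chosen with earlier results of these data known. Of 211 list genes, 209 matched 1 identifier. The test was edgeR 4.0.16's quasi-likelihood F test under R 4.3.3 (TMM, robust, filterByExpr at a minimum count of 10 and total of 15), with p-values adjusted over all genes tested and called at or under 0.05. Treatments were fitted per fraction as treatment by sex means plus batch, and each difference averages the values of females and males. IP and Input were compared with the mouse as a block, with dispersion from the top 5% of genes. The labels give both libraries of a mouse the same identity. After group means were subtracted they correlated (median 0.327 across 11521 genes in 41 mice, 39 over 0.1) against -0.029 for other mice of the batch. Standard errors came from the F statistic. Within-batch values use log2(CPM + 0.5).

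The genes named are the 9 members, up to 4 called genes with the smallest p of each other list, the 3 genes most correlated with each member, and overlapping neighbours. Alternatives were DESeq2 1.42.0, limma voom 3.58.1, other normalizations and filters, batches, sexes and single mice left out. The test was checked on simulated counts for dependent against naive mice in IP (19477 genes). On the log2 scale, 3 of 50 genes changed by 0.25, 17 of 50 by 0.5, 43 of 50 by 1 and 45 of 50 by 2 were called. Of the unchanged genes 4 were called. The simulated counts held no batch or sex effects, so these shares need not hold for the measured libraries.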

Additional observations from a re-analysis of the deposited data

Results flagged for a closer look

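In the test with the mouse as a block, the treatment difference of Hadha was not the same in the fractions. Between dependent and naive mice, the change in IP minus the change in Input was -0.40 ± 0.09 on the log2 scale (edgeR adjusted p = 0.0294, mouse as a block), from -0.38 in IP and 0.00 in Input. It was drawn out because a test of the difference between IP and Input itself passed the threshold. Without the mouse as a block it did not pass. In Input the dependent mean was above the naive mean in batch J (17.1 and 15.3 CPM). It was below in batches K (18.3 and 19.3 CPM) and L (23.7 and 24.7 CPM). The test was not repeated with a batch or a mouse left out.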

How the results depend on the processing

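All 9 genes were called higher in IP than in Input under every alternative run. For dependent against non-dependent mice in IP, 1 member was called. With library size scaling 2 were, and 0 were with no count filter, no batch term, all mice and no batch term, the marker covariate, batches J and K only, without batch I, without batch K, and in females or males only. Leaving out 1 mouse gave 0 to 2. For dependent against naive mice in IP, 1 was called, 2 with DESeq2, 0 in males only, and 1 to 2 with 1 mouse left out. The Hadha estimate against naive mice ran from -0.43 without batch L to -0.33 with no batch term.

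For IP minus Input, dependent against naive, members called fell from 1 to 0 with no replicate block (Hadha -0.40, adjusted p = 0.0650), and genes called from 77 to 14. Without the block, the other comparison of dependent mice went from 24 genes to 1.

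Estimates that changed sign were uncalled throughout. Hadhb, non-dependent against naive in IP, was -0.0181 in batches J and K, -0.0268 without batch I, -0.0517 without batch K, -0.0214 in males and -0.0499 at the lowest to 0.0391 at the highest with 1 mouse left out. Hadha, dependent against naive in Input, was -0.00748 with limma voom, -0.00433 with the marker covariate, -0.0111 in batches J and K, -0.0244 without batch I, -0.136 without batch J, -0.0188 in males and -0.0323 to 0.0287 with 1 mouse left out. Hadhb in that comparison was 0.0281 in females. For non-dependent against naive in Input, Hadha was -0.103 without batch J and -0.0156 in males, and Hadhb was 0.0259 with no batch term, 0.0260 with all mice and no batch term, and 0.0445 in females. The cause was not tested. No other member gained or lost a treatment call.

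Counts of genes called varied by more than 1.5 times. In IP they ran from 56 (males) to 1447 (no filter) around 933 for dependent against naive, from 0 (batches J and K) to 684 (no filter) around 308 for dependent against non-dependent, and from 2 (males) to 481 (no filter) around 88 for the third. In Input they ran from 3 (males) to 694 (DESeq2) around 469, from 0 (batches J and K) to 119 (no filter) around 70, and from 0 (males) to 77 (no filter) around 24.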
